A study of Brachypodium distachyon with 6 samples.

Results

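Reference genes are the transcripts against which quantitative PCR values are divided, on the premise that their own level does not move with the treatment. The genes described here are 7 that are listed as expression references for the model grass Brachypodium distachyon: UBC18, Ubi4, Ubi10, ACT3, GAPDH, SamDC and EF1a. They are listed by locus identifier, and the rule that lists them uses no measured value. Of the 7, 6 were matched to a row among the 29627 features of the count table, and the seventh, BRADI_1g06860v3 (EF1a), is not analysed here. The symbols come with the list of genes, and the table itself pairs no identifier with a name.

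The data are RNA sequencing counts from whole roots of the inbred line Bd21 (3 libraries from plants on ammonium, 3 from plants on nitrate). Seedlings entered hydroponic tanks of 4.5 L at an age of 7 days and then spent 19 days at 2.5 mM nitrogen, which was 1.25 mM ammonium sulfate in one group and 1.25 mM calcium nitrate in the other. The counter-ion, sulfate or calcium, thus changed together with the nitrogen form, and their parts cannot be told apart. Each library was made from a pool of 12 seedlings of the same genotype, and the labels do not state whether pools on the same nitrogen source had tanks of their own. P-values therefore rest on the variation among pools, some of which could be technical. If pools on the same nitrogen source shared a tank, p-values do not cover variation between tanks. Tank and nitrogen source could then not be told apart.

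The genes belong to basic cell functions. UBC18 encodes a ubiquitin-conjugating enzyme, which passes activated ubiquitin towards the proteins to be tagged, and Ubi4 and Ubi10 encode polyubiquitin, the precursor from which ubiquitin itself is cut. ACT3 encodes actin, the subunit of microfilaments. GAPDH, glyceraldehyde-3-phosphate dehydrogenase, catalyses a step of glycolysis, and SamDC, S-adenosylmethionine decarboxylase, supplies the aminopropyl donor for the polyamines spermidine and spermine. Polyubiquitin, actin and GAPDH belong to multigene families in plants. How reads with several alignments were counted is not given in the sources used here, so values of these genes may include or lack reads of near-identical copies.

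Library totals ran from 22470936 to 29547877 counts. The first principal component of log2 CPM (79.0% of the variance) parted the treatments, and ammonium replicate 3 lay at 49.1 on it, against 72.8 and 68.1 for ammonium replicates 1 and 2. The nitrate libraries lay at -64.6, -64.7 and -60.7. Values that rest on ammonium replicate 3 are therefore also given without it. The 6 genes together took 0.987%, 1.02% and 0.919% of all counts in ammonium replicates 1 to 3, against 0.824%, 0.852% and 0.822% in nitrate replicates 1 to 3. Levels are given as CPM, the usual unit of counts relative to library size, after TMM scaling, a correction for library composition. They are not divided by transcript length, so they compare 1 gene between libraries and not genes with each other. In whole roots, fewer cells of a type and less RNA per cell cannot be told apart.

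The question was how steady each gene stayed between nitrogen sources and between replicate pools. The polyubiquitin gene Ubi10 was higher in ammonium roots (1.63-fold) and so was GAPDH (1.25-fold, a call lost in 4 of the 6 omissions of 1 library), while the actin gene ACT3 was lower, at 0.656 of its nitrate level. UBC18, Ubi4 and SamDC did not pass the threshold, with estimated differences of 16.0%, -13.9% and 12.4%. Thus 3 of the 6 genes were called different (edgeR, p under 0.05 after Benjamini-Hochberg adjustment over 23694 tested features). Of all tested features, 41.4% were called, 19.2% higher and 22.2% lower under ammonium, so the share among the reference genes lies near the background. With 1 library left out, 2 to 4 of the 6 genes were called: 2 in the 4 omissions that lost GAPDH, 3 without nitrate replicate 2, and 4 without ammonium replicate 3, where SamDC was called as well. Over all features (23960 to 24025 tested), 7103, 7379 and 9898 were called without ammonium replicates 1, 2 and 3, against 9800 with all libraries. Without nitrate replicates 1, 2 and 3, the features called were 7836, 7740 and 9542. Each omission that lost GAPDH thus also called fewer features over the whole set. So did the omission of nitrate replicate 2 (7740 features), which kept the GAPDH call, and why the call was lost was not tested. None of the 6 genes was called at more than a 2-fold difference. Of all 23694 tested features 3070 were, and of the 2189 features of at least 100 CPM 278 were, so none among 6 lies near the background. The median absolute log2 fold change of the 6 genes was 0.27, against 0.33 over all tested features and 0.30 over the 2189 features of at least 100 CPM.

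**Figure D1:**
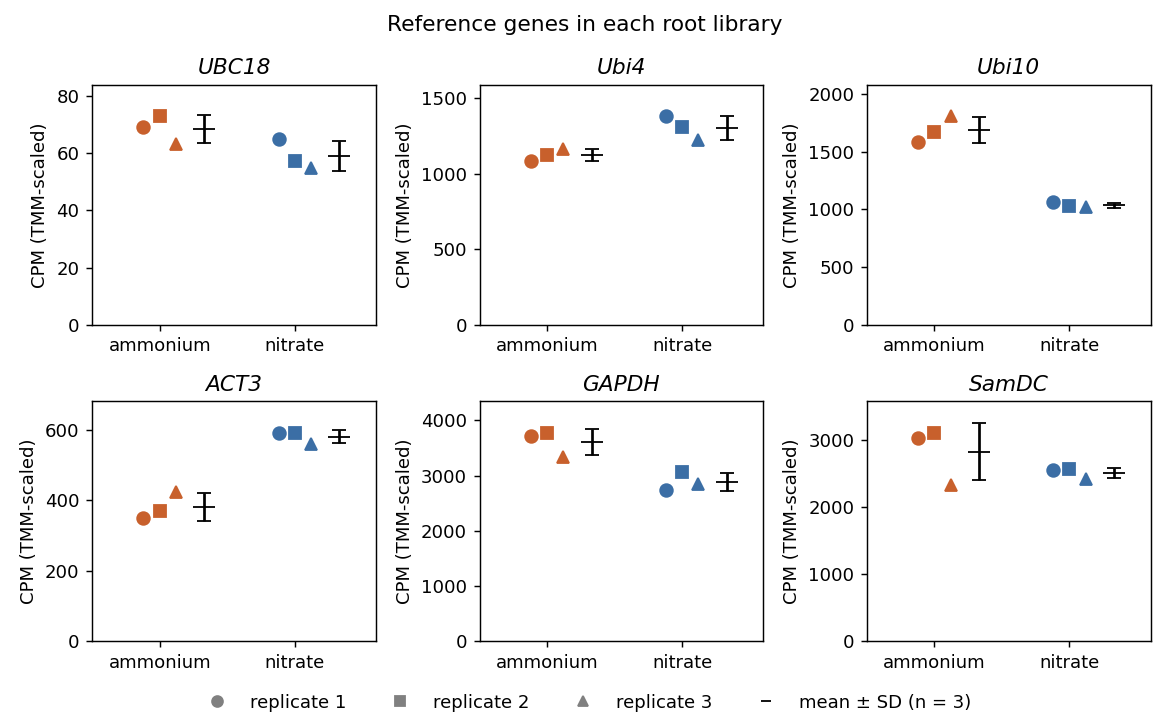
CPM (y axis, from 0, TMM-scaled) of the 6 reference genes in each library, with ammonium in orange and nitrate in blue, a symbol for each replicate number, and the mean ± SD of 3 libraries in black. Ubi10 lies higher and ACT3 lower in every ammonium library than in any nitrate library, while UBC18 and SamDC overlap.

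In the ubiquitin system, Ubi10 passed the test while Ubi4 and UBC18 did not. Ubi10 (BRADI_1g32860v3) stood at 1587, 1671 and 1808 CPM in ammonium roots, against 1061, 1031 and 1018 CPM in nitrate roots. The groups did not overlap, and the gap between them was larger than the spread within either. Its means were 1689 ± 112 CPM under ammonium and 1037 ± 22.3 CPM under nitrate (SD, n = 3 each), a log2 fold change of 0.70 (SE 0.09, 95% interval 0.50 to 0.91, edgeR adjusted p = 0.00044).

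Ubi4 (BRADI_3g04730v3), the other polyubiquitin gene, had 1082, 1124 and 1163 CPM under ammonium, against 1383, 1308 and 1223 CPM under nitrate. All ammonium libraries lay below all nitrate libraries, but ammonium replicate 3 and nitrate replicate 3 were close. The log2 fold change of Ubi4 was -0.22 (SE 0.09, 95% interval -0.42 to -0.01), which missed the threshold after correction (edgeR adjusted p = 0.084). Polyubiquitin genes encode repeats of the same protein unit, and the ratio of Ubi4 to Ubi10 counts differed by -0.92 on the log2 scale between the treatments, as described with the other ratios.

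UBC18 (BRADI_4g00660v3) had the fewest counts of the 6 genes, 1243 to 2051 in a library. It stood at 69.2, 72.9 and 63.2 CPM in ammonium roots, against 64.9, 57.3 and 54.7 CPM in nitrate roots. Nitrate replicate 1 lay above ammonium replicate 3, so the groups overlapped. The log2 fold change of UBC18 was 0.21 (SE 0.09, 95% interval 0.002 to 0.42, edgeR adjusted p = 0.096).

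ACT3 (BRADI_4g41850v3) was the reference gene that was called lower. Its levels were 350, 369 and 425 CPM under ammonium, against 591, 592 and 560 CPM under nitrate. The groups did not overlap, and ammonium replicate 3 lay nearest to the nitrate libraries. The means were 381 ± 38.9 CPM under ammonium and 581 ± 18.4 CPM under nitrate (SD, n = 3 each), a log2 fold change of -0.61 (SE 0.10, 95% interval -0.83 to -0.39, edgeR adjusted p = 0.0013). Without ammonium replicate 3 the log2 fold change of ACT3 was -0.70.

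GAPDH (BRADI_3g14120v3) stood at 3717, 3777 and 3343 CPM in ammonium roots, against 2739, 3066 and 2848 CPM in nitrate roots. Every ammonium library was above every nitrate library, with ammonium replicate 3 the lowest of its group. The log2 fold change was 0.32 (SE 0.10, 95% interval 0.09 to 0.56, edgeR adjusted p = 0.032). With ammonium replicate 1, ammonium replicate 2, nitrate replicate 1 or nitrate replicate 3 left out, the edgeR adjusted p was 0.108, 0.132, 0.105 or 0.0783, and the log2 fold change 0.31, 0.29, 0.29 or 0.31.

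SamDC (BRADI_5g14640v3) varied between ammonium pools through 1 library. It had 3026, 3104 and 2332 CPM under ammonium, against 2544, 2562 and 2419 CPM under nitrate. Ammonium replicate 3 was the lowest of all 6 libraries, and replicates 1 and 2 were the highest. The coefficient of variation of SamDC was 15.1% in ammonium roots and 3.10% in nitrate roots. Its log2 fold change was 0.17 (SE 0.13, 95% interval -0.12 to 0.45, edgeR adjusted p = 0.31). Without ammonium replicate 3 it was 0.28 and passed the threshold (edgeR adjusted p = 0.038), so 1 library decides this call.

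**Figure D2:**
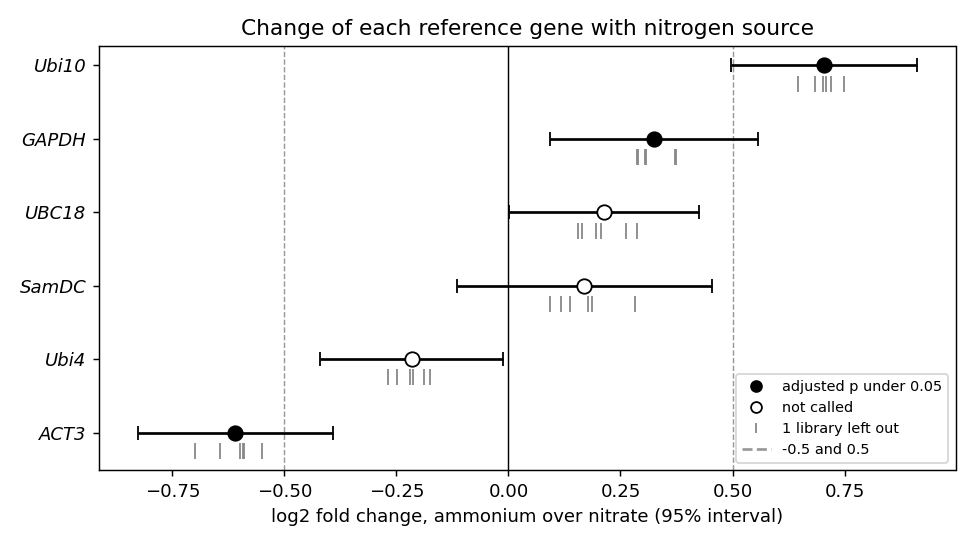
Log2 fold change, ammonium over nitrate (x axis), of each reference gene with its 95% interval, filled where the adjusted p was under 0.05. Grey ticks are the values with 1 library left out and dashed lines mark -0.5 and 0.5; the interval lies between these lines for UBC18, Ubi4 and SamDC.

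A missed threshold does not show that a gene stayed level, so the intervals were read as well. The 95% interval of the log2 fold change lay within -0.5 to 0.5 for 3 of the 6 genes, UBC18, Ubi4 and SamDC, beside 33.3% of all tested features. As folds, these intervals ran from 1.001 to 1.34 for UBC18, from 0.747 to 0.992 for Ubi4 and from 0.923 to 1.37 for SamDC. The intervals from all libraries are not adjusted for the number of features, and those of UBC18 and Ubi4 leave out 0 although neither gene passed the adjusted test. For Ubi10 the interval ran from 1.41- to 1.88-fold, and for ACT3 from 0.564 to 0.762 of the nitrate level. For 4 of the 6 genes (Ubi10, ACT3, GAPDH and Ubi4) the ammonium libraries lay all above or all below the nitrate libraries. The same held for 54.4% of all tested features.

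Steadiness between replicate pools and steadiness between treatments ranked the genes differently. The SD of log2 CPM within a treatment, pooled over both, was 0.071 for Ubi10, 0.073 for Ubi4, 0.089 for GAPDH, 0.107 for ACT3, 0.117 for UBC18 and 0.165 for SamDC. Among the features of at least 100 CPM, the median was 0.110. Ubi10 thus had, with Ubi4, the smallest replicate spread of the 6 genes, but over all 6 libraries its SD of 0.390 was the largest, 5.53 times that within treatments. For SamDC the SD over all libraries, 0.171, was 1.04 times its spread within treatments, and this rests on ammonium replicate 3: without it the spread of SamDC within treatments was 0.040, equal to that of Ubi10 at this precision, and the SD over libraries was 4.09 times as large. The largest spread within treatments was then that of UBC18, 0.109. Over all 6 libraries the SD was 0.134 for Ubi4, 0.158 for UBC18, 0.195 for GAPDH and 0.349 for ACT3. Of the features of at least 100 CPM, 27.9% had a smaller SD over all libraries than Ubi4, 36.1% than UBC18, 40.4% than SamDC, 47.5% than GAPDH, 71.5% than ACT3 and 74.8% than Ubi10. UBC18 itself lies below 100 CPM and so outside that set. Over all tested features these shares ran from 19.1% (Ubi4) to 68.8% (Ubi10), with UBC18 at 25.8%. From the lowest to the highest library, levels spanned 1.28-fold for Ubi4, 1.33-fold for UBC18 and for SamDC, 1.38-fold for GAPDH, 1.69-fold for ACT3 and 1.78-fold for Ubi10.

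**Figure D3:**
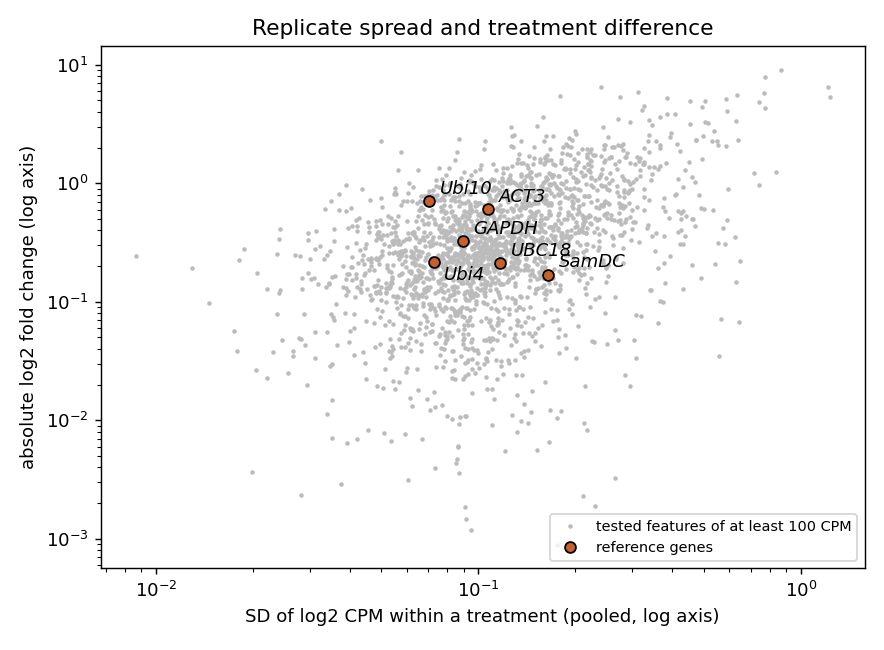
Pooled within-treatment SD of log2 CPM (x axis, log scale) against the absolute log2 fold change between ammonium and nitrate (y axis, log scale) for tested features of at least 100 CPM (grey) and the 6 reference genes (orange; UBC18 lies below 100 CPM). Ubi10 combines a small replicate spread (0.071) with the largest treatment difference of the 6 genes (0.70), and SamDC the largest spread (0.165) with the smallest difference (0.17); without ammonium replicate 3 the values of SamDC are 0.040 and 0.28, no longer the largest spread or the smallest difference.

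Counting error was smaller than this spread. It came to 2.84% for the lowest UBC18 count and to less than 1% for the lowest count of every other gene, where the coefficient of variation between pools of a treatment was 7.20% and 9.03% for UBC18 and 2.15% to 15.1% for the others. Reads carried no molecular identifiers, so these figures cover counting error only.

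Ratios between the reference genes within a library need no scaling of libraries and show the same data without it. Over the 15 pairs of genes, the treatments did not overlap in 13, where 68.3% of all pairs of tested features of at least 100 CPM show no overlap; UBC18 itself lies below that level. Pairs share genes and are not independent. By an exact permutation test (two-sided), each of these 13 differences had p = 0.1, which is the minimum for 3 libraries against 3, and 0.115 after Benjamini-Hochberg adjustment over the 15 pairs, so none passes. Without ammonium replicate 3, the treatments did not overlap in 13 of the 15 pairs. With fewer libraries an absence of overlap is easier to reach, and its share over all pairs of features was not computed for that setting. Over all 6 libraries, the widest difference was that of Ubi10 to ACT3. Its log2 ratios were 2.18, 2.18 and 2.09 in ammonium roots, against 0.84, 0.80 and 0.86 in nitrate roots. That is a 2.49-fold difference in how these genes compare with each other, with SDs of 0.052 under ammonium and 0.032 under nitrate. Next came ACT3 to GAPDH (-0.94 on the log2 scale) and Ubi4 to Ubi10 (-0.92).

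The exceptions were UBC18 to SamDC and UBC18 to GAPDH, whose ratios overlapped between the treatments. The log2 ratio of UBC18 to SamDC was -5.45, -5.41 and -5.21 in ammonium roots, against -5.29, -5.48 and -5.47 in nitrate roots, a difference of 0.06 (exact permutation test, two-sided p = 0.5), and of -0.02 without ammonium replicate 3. That of UBC18 to GAPDH differed by -0.11 (exact permutation test, two-sided p = 0.6). All 3 genes had positive log2 fold changes after TMM scaling, 0.21 for UBC18, 0.17 for SamDC and 0.32 for GAPDH, of which that of GAPDH passed the test.

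**Figure D4:**
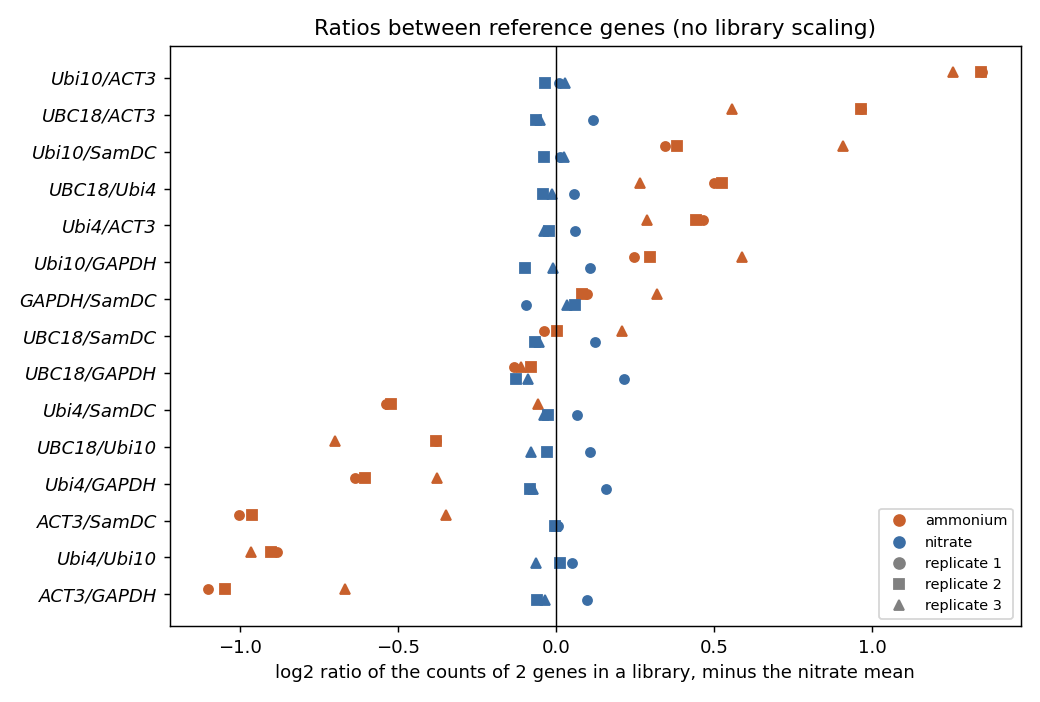
Log2 ratio of the counts of 2 reference genes in each library, minus the mean of the nitrate libraries (x axis), for the 15 pairs, with ammonium in orange above nitrate in blue and a symbol for each replicate number. Ubi10/ACT3 is displaced the most, and ammonium replicate 3 (triangle) stands apart from ammonium replicates 1 and 2 in most pairs.

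The ratios also set libraries of the same treatment apart. Between ammonium replicates 1 and 2 the log2 ratios of the 15 pairs differed by a median of 0.023 and at most 0.054. Between ammonium replicates 1 and 3 the median was 0.257 and the highest 0.656, and between replicates 2 and 3 they were 0.258 and 0.616. In the nitrate group, replicate 1 differed from replicates 2 and 3 by medians of 0.138 and 0.117, and replicates 2 and 3 differed by 0.025. Within the ammonium group, replicate 3 held the lowest level of UBC18, GAPDH and SamDC and the highest of Ubi4, Ubi10 and ACT3. The largest of these displacements in CPM was that of SamDC, described above.

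The geNorm measure M, the mean SD of the log2 ratio of a gene to each other reference gene, is lower where these ratios are steadier. Genes that move together thus get a low M even where they move with the treatment. Over all 6 libraries M was 0.256 for UBC18, 0.271 for SamDC, 0.275 for GAPDH, 0.316 for Ubi4, 0.426 for Ubi10 and 0.491 for ACT3. The log2 fold changes of UBC18, SamDC and GAPDH were all positive (0.21, 0.17 and 0.32). Ubi4, with the smallest SD over libraries (0.134), had a negative one (-0.22). Within the ammonium libraries alone M ran from 0.139 (Ubi4) to 0.244 (SamDC), and within the nitrate libraries alone from 0.055 (ACT3) to 0.119 (GAPDH). The ammonium values rest on replicate 3. Log2 ratios differed by at most 0.054 between ammonium replicates 1 and 2, against up to 0.656 and 0.616 between these and replicate 3. M within ammonium replicates 1 and 2 alone was not computed. ACT3 had the lowest M of the 6 genes among nitrate pools, with SamDC nearly equal (0.056), and the highest over both treatments. Removing the gene with the highest M in turn took out ACT3, Ubi10, Ubi4 and GAPDH and left UBC18 and SamDC (M = 0.111). Without ammonium replicate 3 the genes left were GAPDH and SamDC, and without nitrate replicate 1 they were UBC18 and GAPDH; each of the other 4 omissions left UBC18 and SamDC. ACT3 had the highest M in all 6 omissions.

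To see what a choice of reference does, all tested features were fitted again with the libraries scaled to the counts of 1 reference gene in place of TMM. With TMM, 46.4% of the 9800 calls were higher under ammonium and the median log2 fold change was 0.00. Scaled to Ubi10, 78.1% of features were called, 977 higher and 17522 lower, and the median feature moved to -0.70. Of the calls made with TMM, 1119 were then called in the opposite direction. Scaled to ACT3, 72.7% were called, 15634 higher and 1592 lower, the median feature moved to 0.62 and 436 TMM calls turned round. These shifts follow by construction from the log2 fold changes of Ubi10 and ACT3 themselves.

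The genes with smaller differences moved the balance less. Scaled to GAPDH, 48.2% of features were called, of which 14.7% were higher, with a median log2 fold change of -0.32. Scaled to UBC18, 38.5% were called, 21.7% of them higher, at a median of -0.21. Scaled to Ubi4, 48.7% were called, 71.2% of them higher, at a median of 0.22. With SamDC, 29.3% were called, 27.6% of them higher, at a median of -0.14. The fold changes were also less precise with SamDC, at a median SE of 0.20 against 0.13 with TMM. None of these 4 scalings turned a TMM call round, and they kept 66.9% (SamDC) to 80.4% (Ubi4) of the TMM calls.

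**Figure D5:**
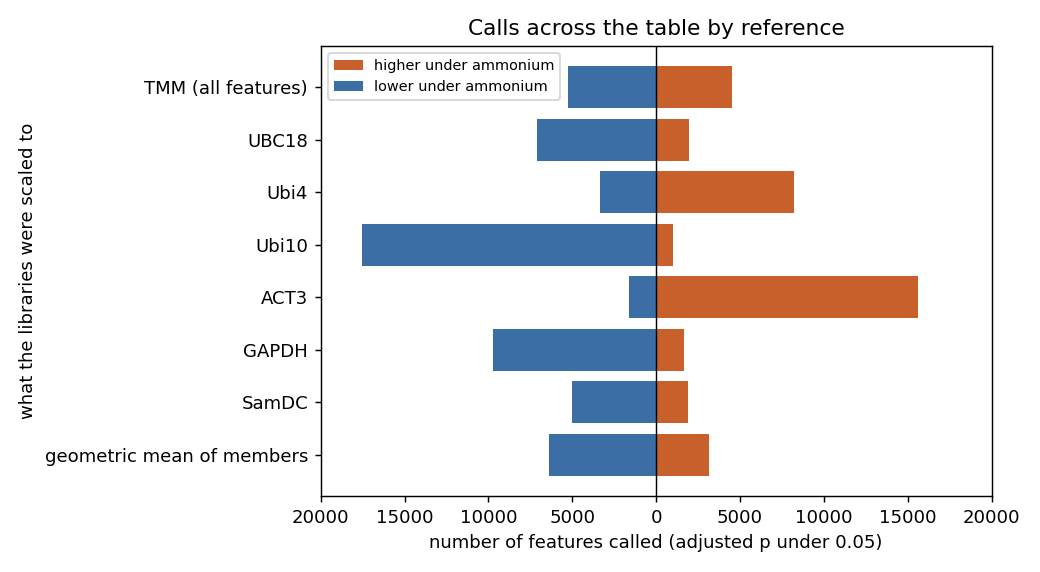
Number of features called (x axis), higher under ammonium to the right and lower to the left of 0, when the libraries were scaled by TMM or to the reference gene named on the y axis. Ubi10 gave 17522 lower and 977 higher calls, ACT3 1592 lower and 15634 higher, and the geometric mean of the 6 genes 6395 lower and 3150 higher.

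The shift from the geometric mean of all 6 genes likewise follows by construction from their log2 fold changes, where opposite signs offset each other. The geometric mean shifted the median feature less than any of the 6 alone. Scaled to it, 40.3% of features were called, 3150 higher and 6395 lower, with a median log2 fold change of -0.09, and 85.8% of the TMM calls were kept. On the TMM scale, the geometric mean of 2 reference genes differed between the treatments by a median of 1.17-fold over the 15 pairs and by at most 1.43-fold (Ubi10 with GAPDH). For the 20 sets of 3 genes the median was 1.11-fold, and for the 6 sets of 5 genes 1.055-fold. The smallest differences between pairs came from genes with opposite signs: UBC18 with Ubi4 differed by 0.00019 on the log2 scale and Ubi4 with SamDC 1.02-fold. With 1 library left out, the log2 difference of UBC18 with Ubi4 ran from -0.049 to 0.057 and that of Ubi4 with SamDC from -0.066 to 0.024, so neither has a settled sign. Ubi10 with ACT3 gave 1.03-fold although both were called different (log2 difference -0.021 to 0.096 with 1 library left out). These sets were ranked on the values they describe, so their order was not tested.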

How the data were processed

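The deposited table holds raw read counts per feature for 6 root libraries. The tools named are HISAT2 and HTSeq (per the submitters' processing notes). The genome build, annotation, tool versions and counting options are not given in the sources consulted. The rule names the 7 genes by identifier and uses no value of these data, but the list and the settings were drawn up with earlier results of these data known. No identifier matched the RefSeq gene table (0 of 29627), so product names, lengths, coordinates and sequences are not given, and the root label was not checked against marker genes.

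A quasi-likelihood model (edgeR 4.0.16, R 4.3.3) was fitted to the counts after filterByExpr (minimum count 10, minimum total 15; 23694 features kept) and TMM scaling, with nitrogen source as the only term. The SE is the log2 fold change over the square root of F, and 95% intervals use the t distribution. SDs use log2 CPM with a prior count of 2. The procedure was tested on simulated data. Ratios were tested over 15 pairs and not the 21 planned, as EF1a is not analysed.

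Named genes were the 6 reference genes with counts, the 2 features most like the one with the largest difference, and the 2 steadiest, among features of at least 100 CPM. Libraries of 1 treatment differed beyond counting noise (chi-square per degree of freedom at least 6.62), so all 6 were kept. Deviations of same-numbered libraries from their treatment means correlated weakly (r = 0.133, 0.213 and 0.113 across features). For libraries of different number r was -0.126 to -0.0171. Taking deviations from treatment means ties these values to each other, so they do not show a shared batch. The replicate number was used as a block in an alternative, and the labels do not say what the number marks. Other scalings, no filter, DESeq2 1.42.0, each library left out and scaling to the reference genes were the other alternatives. The replicate spread and the means of 2 genes with each library left out were added after the data had been seen.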

Additional observations from a re-analysis of the deposited data

How the results depend on the processing

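Of the 6 genes, 3 were called under TMM, RLE, upper-quartile and library-size scaling, without the filter, with DESeq2 and with the replicate block, and Ubi10 and ACT3 were called in all 12 alternatives run on them. Leaving out 1 library gave 2 to 4 called genes, beside 7103 to 9898 called features over the whole set. The log2 fold change then ran from 0.65 to 0.75 for Ubi10, -0.70 to -0.55 for ACT3, 0.29 to 0.37 for GAPDH, 0.093 to 0.28 for SamDC, 0.16 to 0.29 for UBC18 and -0.27 to -0.17 for Ubi4. The call on GAPDH was lost in 4 of these 6 omissions, and SamDC was called without ammonium replicate 3; fewer libraries enter these fits. No gene changed direction in any alternative. The replicate block changed no call of a reference gene and called 10526 features in all, against 9800 without it. Scaling to Ubi10 called 18499 features and scaling to ACT3 called 17226, by construction through the change of the gene itself; the other 17 alternatives gave 6941 (scaled to SamDC) to 11550 (scaled to Ubi4). SDs over libraries moved by less than the replicate spread in all 10 alternatives run on each gene, and M in all 6. Alternatives planned for EF1a were not run.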

Other observations

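Among the 2184 other features of at least 100 CPM, the 2 with levels most like those of Ubi10 over the 6 libraries were BRADI_2g31690v3 and BRADI_4g00467v3, at Euclidean distances of 0.140 and 0.146 between the deviations of log2 CPM from the mean. BRADI_2g31690v3 averaged 191.5 ± 11.6 CPM in ammonium roots and 126.8 ± 2.87 CPM in nitrate roots, and BRADI_4g00467v3 366 ± 14.6 CPM in ammonium roots and 228 ± 11.1 CPM in nitrate roots (SD, n = 3 each). The files pair these identifiers with no gene name.

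The smallest SD of log2 CPM over all libraries, among the same features, was that of BRADI_1g14410v3 (0.018), followed by BRADI_2g14310v3 (0.023). BRADI_1g14410v3 averaged 192.2 ± 3.49 CPM in ammonium roots and 192.7 ± 1.33 CPM in nitrate roots, and BRADI_2g14310v3 averaged 179.7 ± 3.52 CPM in ammonium roots and 176.4 ± 0.731 CPM in nitrate roots (SD, n = 3 each). From the lowest to the highest library they spanned 1.04-fold and 1.05-fold, where the 6 reference genes spanned 1.28-fold (Ubi4) to 1.78-fold (Ubi10). Both were chosen as the lowest of many on these same libraries, so their values are a description, and how steady they are in other roots was not tested.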
